A study of Mus musculus with 6 samples.

Results

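Elastic fibres give skin, vessels and other tissues their recoil. They consist of a core of crosslinked elastin laid down on microfibrils, which are threads of fibrillin decorated with small glycoproteins, and fibulins link tropoelastin, the soluble elastin monomer, to the microfibrils and to the enzymes that crosslink it. In fat tissue these fibres are part of the stroma around adipocytes and are made largely by fibroblast-like cells, the lineage to which adipocyte precursors belong. The set described here holds 10 genes chosen by symbol: Eln, Fbn1, Fbn2, Fbln1, Fbln2, Fbln5, Efemp2, Emilin1, Mfap2 and Mfap5. All 10 were among the 46095 symbols of the expression table.

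The study profiled messenger RNA of 3T3-L1 cells, an established line of mouse embryo fibroblasts with the capacity to become adipocytes in culture. One group of 3 samples received 0.125 μg/mL of flavonoids from the plant Smilax glabra, and the other group of 3 received no treatment. Both were labelled as adipocytes at 8 days after differentiation. All samples come from this 1 line. How long the exposure lasted, and whether a vehicle was used, is not given in the sources used here. The labels do not tell separate cultures from repeat samples of 1 culture, and p-values therefore measure no more than the sample-to-sample spread, which may be technical.

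Libraries held between 22094753 and 26521418 fragments, as worked out from the steps in the values. The label of adipocytes was only partly met by the markers, since Fabp4, Lpl, Pparg and Cebpa averaged over 1 FPKM (fragments per kilobase of gene, scaled to the library total) while the other 8 of 12 listed adipocyte markers, Adipoq and Lep included, did not. Untreated libraries differed from each other along gene length. The slope of a library's log2 values on gene length, per doubling of length and relative to the mean of all libraries, was -0.117, 0.017 and 0.16 in untreated replicates 1, 2 and 3. It lay between -0.0305 and -0.0126 in the flavonoid-treated libraries.

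The genes of this set were expressed at very different levels, and flavonoid-treated cells had less Mfap5 and less Emilin1. Of the 10 members, 8 had a mean of at least 1 FPKM and were tested, and 2 of these 8 fell and 0 rose (limma, adjusted p under 0.05). Over all 11464 genes tested, 9.99% were called, 5.13% as lower and 4.86% as higher. The median log2 change of the 8 tested members was -0.27, against -0.02 over all genes tested. The flavonoid values of 3 of the 8 members lay wholly below the untreated values, which was the case for 17.3% of all genes tested, and groups did not overlap in either direction for 34.3%. In bulk samples such as these, fewer cells of a type and less RNA per cell cannot be told apart.

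**Figure D1:**
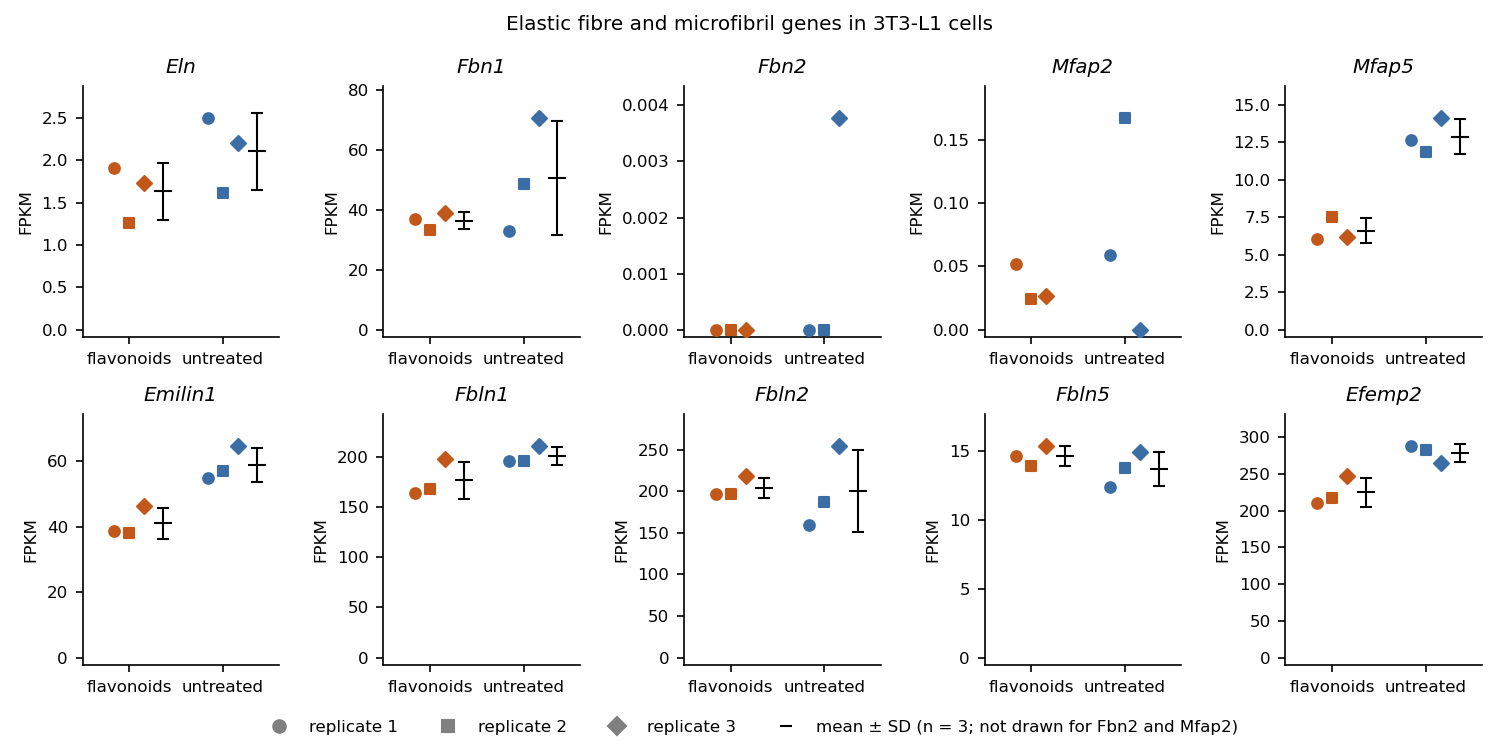
FPKM of the 10 genes in each sample, flavonoid-treated left and untreated right, with points for replicates and bars for the mean ± SD (n = 3 each, not drawn for Fbn2 and Mfap2). Axes differ between panels. Mfap5, Emilin1 and Efemp2 show no overlap between groups, the untreated spread is wide for Fbn1 and Fbln2, and Fbn2 and Mfap2 are near 0.

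Levels were led by 3 fibulins. Efemp2, Fbln2 and Fbln1 together made up 85.3% to 86.1% of the members' summed FPKM in flavonoid-treated libraries and 81.5% to 84.8% in untreated libraries. FPKM are per length, so levels can be set beside each other. In flavonoid-treated cells the order ran Efemp2, Fbln2, Fbln1, Emilin1, Fbn1, Fbln5, Mfap5, Eln and then Mfap2 and Fbn2. The ranges of Efemp2 and Fbln2, of Fbln2 and Fbln1, and of Emilin1 and Fbn1 overlapped there. In untreated cells Fbln1 stood before Fbln2, and the ranges of that pair, of Emilin1 and Fbn1, of Fbln5 and Mfap5 and of the 2 lowest genes overlapped. In flavonoid-treated cells Fbln5 and Mfap5 were apart in all 3 samples. Among all genes tested, Efemp2 ranked 295 by mean level and Eln ranked 10264.

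Elastin itself was scarce. Eln, which encodes tropoelastin (chromosome 5, 134702593 to 134747323, GRCm38 as for all genes here, minus strand), measured 1.91, 1.26 and 1.74 FPKM in flavonoid-treated cells, against 2.50, 1.61 and 2.21 FPKM in untreated cells. The groups overlapped, and these values rest on 129 to 184 fragments per flavonoid-treated library and 145 to 215 per untreated library. The log2 change was -0.23 (SE 0.17, 95% interval -0.62 to 0.15, limma adjusted p = 0.422). Eln was not called in any of the 16 other fits that could test it.

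Microfibrils are built from fibrillins, and fibrillin-1 was by far the main one here. Fbn1, mutated in Marfan syndrome (chromosome 2, 125300594 to 125507993, minus strand), measured 37.0, 33.4 and 38.9 FPKM with flavonoids, against 32.8, 48.5 and 70.6 FPKM without. The treated samples lay close together, with a coefficient of variation of 7.76%, and fell inside the untreated range, where it was 37.5%. The log2 change was -0.40 (SE 0.24, 95% interval -0.94 to 0.14, limma adjusted p = 0.319).

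Fbn1 is the longest of the tested members, with 9986 bases implied by its FPKM steps. Its untreated values stood in the same order as the length slopes of those libraries, lowest in replicate 1 and highest in replicate 3, and the part of that trend in the result was not tested beyond the fit that follows. With each library's trend over length removed, its log2 values were 5.23, 5.12 and 5.56 in flavonoid-treated cells, against 5.36, 5.56 and 5.69 in untreated cells, and the log2 change was -0.23 (limma adjusted p = 0.227). The groups still overlapped. Without untreated replicate 1 the log2 change as deposited was -0.67 and passed the test (limma adjusted p = 0.0303), and without untreated replicate 3 it was -0.13. Over the 17 other fits the adjusted p ran from 0.0303 to 0.646.

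**Figure D2:**
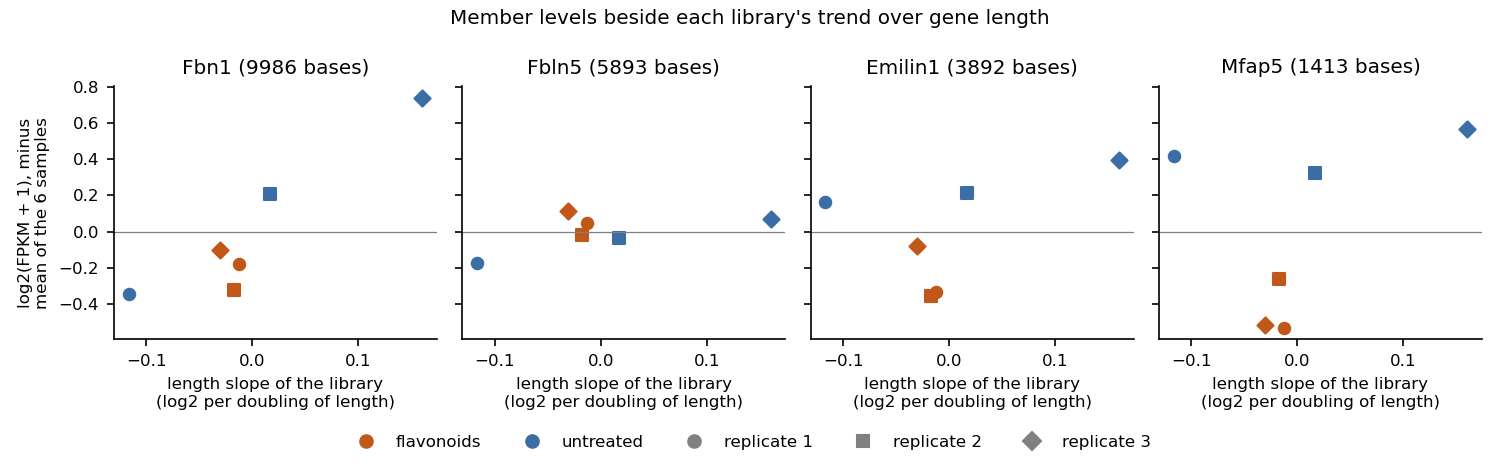
Each library's slope over gene length (x axis, log2 per doubling of length) against the level of 4 members (y axis, log2(FPKM + 1) minus its mean over the 6 samples), with the gene length implied by the FPKM steps above each panel. The untreated libraries spread from -0.117 to 0.16 on the x axis, Fbn1 is ordered along it in untreated cells, and for Mfap5 and Emilin1 every untreated point lies above every flavonoid point.

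The second fibrillin was nearly unseen. Fbn2, which is used mostly in developing tissue (chromosome 18, 58008623 to 58210487, minus strand), was listed at 0 in the 3 flavonoid-treated libraries and in untreated replicates 1 and 2. Untreated replicate 3 held 1 fragment, or 0.00378 FPKM. No comparison of Fbn1 with Fbn2 between groups could be made. A listed 0 is not proof of absence, since 1 of 72 ribosomal protein genes in the table was also listed at 0 in all samples.

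The microfibril-associated glycoproteins bind fibrillin and differed from each other by level. Mfap2, the gene of MAGP-1 (chromosome 4, 141010418 to 141015984, plus strand), had 2, 1 and 1 fragments in the flavonoid-treated libraries, against 2, 6 and 0 in the untreated libraries. Per library total that is a ratio of 0.463 between groups, with an exact 95% interval of 0.102 to 1.73 that covers counting error alone. A difference was therefore not detectable at this depth. The ratio of Mfap2 to Mfap5 could be formed in 5 of 6 libraries and was not tested.

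Mfap5, the gene of MAGP-2 (chromosome 6, 122505845 to 122529290, plus strand), showed the largest change among the tested members. It measured 6.08, 7.55 and 6.17 FPKM in flavonoid-treated cells, against 12.7, 11.8 and 14.1 FPKM in untreated cells. Every flavonoid value was below every untreated value, and the numbers rest on 215, 283 and 216 fragments with flavonoids against 395, 391 and 505 without. Mean levels were 6.60 ± 0.826 and 12.9 ± 1.17 FPKM (SD, n = 3 each), a 1.95-fold lower level. The log2 change was -0.87 (SE 0.13, 95% interval -1.17 to -0.57, limma adjusted p = 0.0076).

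The fall of Mfap5 was called in 16 of 17 other fits. The exception left out flavonoids replicate 1 (log2 change -0.82, limma adjusted p = 0.0528), within a range of 0.00265 to 0.0528. Mfap5 is the shortest tested member, with 1413 bases implied. With the length trend removed its log2 values were 2.80, 3.05 and 2.85 in flavonoid-treated cells, against 3.61, 3.67 and 4.14 in untreated cells, so the groups stayed apart.

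The 3 tested genes whose profile over the 6 samples was nearest to that of Mfap5, by root mean square distance of centred log2 values, were Klf10, Upk3b and Efna2. Klf10, a zinc-finger transcription factor gene, lay at a distance of 0.0541, with 8.71, 10.3 and 9.43 FPKM in flavonoid-treated cells, against 18.9, 16.4 and 19.7 FPKM in untreated cells. Upk3b, a uroplakin gene, lay at 0.0564 and Efna2, an ephrin ligand gene, at 0.0610. For Eln the nearest were Tmc4, Isoc2b and Trp53i13, at 0.0876 to 0.0949. The group difference is itself part of this measure of likeness, so it is given as a description.

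Emilin1 encodes a glycoprotein found where elastin meets the microfibrils (chromosome 5, 30913402 to 30921277, plus strand). It measured 38.6, 38.0 and 46.3 FPKM with flavonoids, against 54.8, 56.9 and 64.7 FPKM without. The groups did not overlap, at means of 41.0 ± 4.63 and 58.8 ± 5.20 FPKM (SD, n = 3 each), a 1.44-fold lower level. The log2 change was -0.51 (SE 0.13, 95% interval -0.80 to -0.23, limma adjusted p = 0.0368).

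This call was less firm than that of Mfap5. It was kept in 11 of 17 other fits, and adjusted p ran from 0.0122 to 0.154 while the log2 change stayed between -0.60 and -0.44. It was lost in 6 fits, among them those without untreated replicate 2 (limma adjusted p = 0.145), flavonoids replicate 1 (0.154) or flavonoids replicate 2 (0.150), without a filter on low values (0.0712) and on the TPM scale (0.0565). With the length trend removed the limma adjusted p was 0.0122, in a fit that called 10.5% of all genes tested as lower, against 5.13% as deposited.

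No promoter window was at hand for Mfap5. The promoter of Emilin1, the other member that passed the test, is shown with that of Fbln2, a member with hardly any change, for comparison. Both are RefSeq windows on GRCm38.p6, 250 bases before to 50 after the annotated start, and capitals mark the matches to the motifs named after them. The Emilin1 window is chr5:30913536-30913835, plus strand, and the Fbln2 window is chr6:91212514-91212813, plus strand.
Emilin1: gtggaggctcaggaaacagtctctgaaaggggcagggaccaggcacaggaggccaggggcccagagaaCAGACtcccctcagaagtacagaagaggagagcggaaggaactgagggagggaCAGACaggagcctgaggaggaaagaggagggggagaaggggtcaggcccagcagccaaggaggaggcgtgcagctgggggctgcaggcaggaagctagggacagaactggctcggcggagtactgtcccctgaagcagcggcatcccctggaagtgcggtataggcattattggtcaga
Fbln2: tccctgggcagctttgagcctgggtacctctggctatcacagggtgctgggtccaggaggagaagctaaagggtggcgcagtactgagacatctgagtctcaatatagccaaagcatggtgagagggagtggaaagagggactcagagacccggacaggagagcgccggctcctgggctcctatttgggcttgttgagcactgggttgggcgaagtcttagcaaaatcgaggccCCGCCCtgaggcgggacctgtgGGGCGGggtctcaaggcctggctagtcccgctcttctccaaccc

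Each motif was searched on both strands. The Emilin1 window held 2 matches to CAGAC, the core of the SMAD-binding CAGA box, which 49.6% of 32851 promoter windows hold at least once. The Fbln2 window held 2 matches to GGGCGG, the GC box, which is found in 35.7% of windows. Neither window matched TATAAA (the TATA box, 13.6% of windows), TGANTCA (AP-1, 7.81%), GGAATG (TEAD, 14.7%), TGATGNAA (an ATF4 and C/EBP composite element, 3.97%) or ACGTG (a hypoxia-response core, 19.6%). GC content was 61.7% in the Emilin1 window and 60.3% in the Fbln2 window, against a median of 52.7%. A match is a run of letters and not a bound site. The CAGAC matches were not particular to Emilin1. Among members that did not pass, at least 1 window each of Fbln1, Fbln5 and Efemp2 also held 2. Further windows of Fbln5 and Efemp2 held 1 or 0, and those of Fbn1 and Fbln2 held 0.

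The fibulins were the abundant members, and none of the 4 passed the test as deposited. Efemp2, the gene of fibulin-4, which brings lysyl oxidase to tropoelastin (chromosome 19, 5473954 to 5482517, plus strand), measured 209.9, 216.5 and 247.5 FPKM with flavonoids, against 288.3, 282.0 and 265.2 FPKM without. Every flavonoid value was below every untreated value, although the gap was narrow between flavonoids replicate 3 and untreated replicate 3. The log2 change was -0.31 (SE 0.12, 95% interval -0.59 to -0.03, limma adjusted p = 0.146).

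With the length trend removed the same gene was called lower (log2 change -0.33, limma adjusted p = 0.0248), in a fit that called 10.5% of all genes tested as lower. Over its 17 other fits the adjusted p of Efemp2 ran from 0.0248 to 0.390. Exons of Mus81 overlap those of Efemp2 on the other strand, and without known use of strand their reads cannot be told apart there. Mus81 itself measured 19.2 ± 0.775 FPKM in flavonoid-treated cells and 16.5 ± 1.62 FPKM in untreated cells (SD, n = 3 each), far below Efemp2.

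Fbln1, which binds fibronectin and elastin in the matrix (chromosome 15, 85205949 to 85286535, plus strand), measured 163.6, 168.3 and 197.7 FPKM in flavonoid-treated cells, against 195.7, 195.5 and 211.3 FPKM in untreated cells. Only flavonoids replicate 3 reached the untreated range, and the log2 change was -0.19 (95% interval -0.47 to 0.09, limma adjusted p = 0.368). Fbln2, a related matrix linker (chromosome 6, 91212455 to 91272540, plus strand), measured 197.0, 196.5 and 218.4 FPKM with flavonoids, against 159.2, 187.3 and 255.0 FPKM without. Its treated values lay inside the untreated range, with a log2 change of 0.05 (95% interval -0.35 to 0.45, limma adjusted p = 0.885). The direction of Fbln2 turned on the TPM scale (-0.0068) and without untreated replicate 1 (-0.10).

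Fbln5, which tethers tropoelastin to cells and microfibrils (chromosome 12, 101746565 to 101819055, minus strand), measured 14.6, 13.9 and 15.4 FPKM in flavonoid-treated cells, against 12.4, 13.7 and 14.9 FPKM in untreated cells. The groups overlapped and all 6 values lay close together, with a log2 change of 0.10 (95% interval -0.17 to 0.36, limma adjusted p = 0.649). Its coefficient of variation was 5.02% with flavonoids and 9.13% without.

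**Figure D3:**
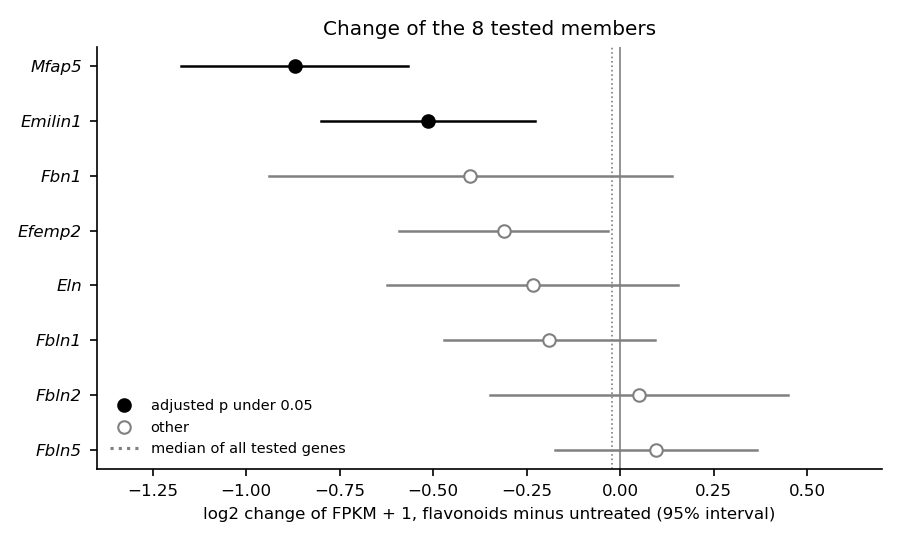
Log2 change of FPKM + 1, flavonoids minus untreated, for the 8 tested members, with 95% intervals not adjusted for the number of genes. Mfap5 at -0.87 and Emilin1 at -0.51 are the filled points with an adjusted p under 0.05. The interval of Efemp2 ends at -0.03, and those of the other 5 cross 0.

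A ratio of 2 members within a library does not depend on a factor applied to the whole library, but it does depend on a trend over gene length where their lengths differ. Fbln5 stood at 6.97%, 6.42% and 6.21% of the Efemp2 level in flavonoid-treated cells, against 4.29%, 4.86% and 5.61% in untreated cells. The ranges did not overlap, and the log2 ratio differed by 0.42 between groups. An exact two-sided permutation test of 3 against 3 samples gave p = 0.1, the smallest it can give (0.2 adjusted over the 2 ratios tested), so this difference did not pass. The untreated ratios stood in the order of those libraries' length slopes. In an alternative chosen after seeing the data, with the length trend removed, the log2 ratios were -3.752, -3.828 and -3.790 in flavonoid-treated cells, against -4.166, -4.304 and -4.485 in untreated cells. The order within untreated cells was then the opposite, and the ranges still did not overlap. The level of Eln was 5.16%, 3.79% and 4.47% of that of Fbn1 with flavonoids, against 7.63%, 3.32% and 3.13% without. Those ranges overlapped (exact permutation p = 1).

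Lists of genes that work with elastic fibres were set beside the 9.99% called over all genes tested, and no difference between lists was tested. Latent TGF-beta binding proteins and other microfibril partners gave 9 tested genes of 15, of which 1 fell and 0 rose, a share close to that over all genes, with a median log2 change of -0.39. Ltbp1, which anchors latent TGF-beta to microfibrils, fell to 7.03 ± 0.333 FPKM in flavonoid-treated cells, against 11.5 ± 2.25 FPKM in untreated cells (SD, n = 3 each, limma adjusted p = 0.0356). Its call was lost in 7 of 17 other fits. Ltbp2, which binds fibrillin-1, measured 62.8 ± 5.46 FPKM with flavonoids and 90.9 ± 22.8 FPKM without (limma adjusted p = 0.114). Mfap1a and Mfap1b were listed for their symbols, and no place in microfibrils is claimed for them. These near-identical copies may share reads, and both count among the 9 tested. Their log2 changes were -0.49 and -0.39, the latter also the median of the list, and neither passed.

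Of the genes for crosslinking and assembly, 10 of 11 were tested and 2 fell, both lysyl oxidases. These enzymes oxidise lysines of elastin and collagen so that crosslinks can form. Lox was 2.47-fold lower (limma adjusted p = 0.00772) and kept its call in 16 of 17 other fits. Loxl3 was 1.36-fold lower (limma adjusted p = 0.0483), and its call was lost in 10 of 17 other fits, median-ratio scaling (0.0612) and the fit with no intensity trend (0.0616) among them. Loxl1, the family member most closely tied to elastin, measured 77.3 ± 7.64 FPKM in flavonoid-treated cells and 65.3 ± 3.29 FPKM in untreated cells (SD, n = 3 each), a log2 change of 0.24 that did not pass (95% interval -0.03 to 0.50, limma adjusted p = 0.233).

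Of the ADAMTS-type proteins that bind microfibrils, 3 of 11 genes were tested and 2 fell. Adamtsl4, a fibrillin-1 binder, measured 4.84 ± 1.02 FPKM with flavonoids and 11.5 ± 2.23 FPKM without (limma adjusted p = 0.00992). Adamts10, a protease that binds fibrillin-1, measured 21.7 ± 1.26 FPKM with flavonoids and 33.2 ± 5.13 FPKM without (limma adjusted p = 0.029). The call of Adamts10 was lost in 7 of 17 other fits, and that of Adamtsl4 in 2. In the list of integrins that bind fibrillin and of TGF-beta ligands, Tgfb3 fell among 7 tested genes of 11 and none rose. Tgfb3, a TGF-beta ligand, measured 17.1 ± 1.28 FPKM in flavonoid-treated cells and 27.9 ± 1.54 FPKM in untreated cells (SD, n = 3 each, limma adjusted p = 0.0101). Its call was lost in 3 of 17 other fits. The integrin genes Itgav, Itgb1, Itgb3, Itgb5 and Itga5 did not pass. Furin, which trims fibrillin precursors, was the 1 tested gene of 3 in its list and did not pass.

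Of the 11 genes of elastin breakdown and of the elastin receptor, 8 were tested, 3 rose and 1 fell, with a median log2 change of 0.47. Ctsk, a cathepsin that can cut elastin, rose to 50.8 ± 3.94 FPKM in flavonoid-treated cells, against 23.3 ± 3.12 FPKM in untreated cells (SD, n = 3 each, limma adjusted p = 0.00353). Mmp2, a gelatinase, rose 1.84-fold, and Ctsa, a subunit of the elastin receptor and a lysosomal protease, rose 1.55-fold. The call of Mmp2 was lost in 4 of 17 other fits and that of Ctsa in 5. Mmp9, the other gelatinase, measured 0.150 ± 0.0252 FPKM with flavonoids and 1.97 ± 0.333 FPKM without. It reached the minimum mean of 1 FPKM through the untreated samples alone, so its place among the falls is set in part by that filter; with no filter on low values its limma adjusted p was 0.0146. Glb1, another subunit of that receptor, had a log2 change of 0.22 and did not pass.

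Over all these lists 7 genes were lower and 3 higher, with 9, 10, 3, 7, 1 and 8 genes tested per list in the order above. Over all 11464 genes tested, 5.13% were called lower and 4.86% higher. Without untreated replicate 2 the counts were 0 and 1, without flavonoids replicate 1 they were 2 and 1, without flavonoids replicate 2 they were 3 and 1, and without flavonoids replicate 3 they were 4 and 2. They were 11 and 4 without untreated replicate 1 and 5 and 5 without untreated replicate 3. Mmp9, among the 7, was below the minimum mean whenever 1 untreated library was left out and was not tested there. It was called in all 13 other fits that tested it. Calls over the whole table moved likewise, to 76 lower and 64 higher without untreated replicate 2, against 588 and 557 with all libraries. Estimates moved less in that fit. The log2 change was -1.283 for Lox, -1.095 for Adamtsl4 and 0.623 for Ctsa, against -1.305, -1.092 and 0.627 with all libraries. They moved further without the other untreated libraries. Without untreated replicate 1 they were -1.449, -1.219 and 0.653, and without untreated replicate 3 they were -1.185, -0.961 and 0.605. Ctsk was the 1 partner gene tested and called in all 17 other fits.

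**Figure D4:**
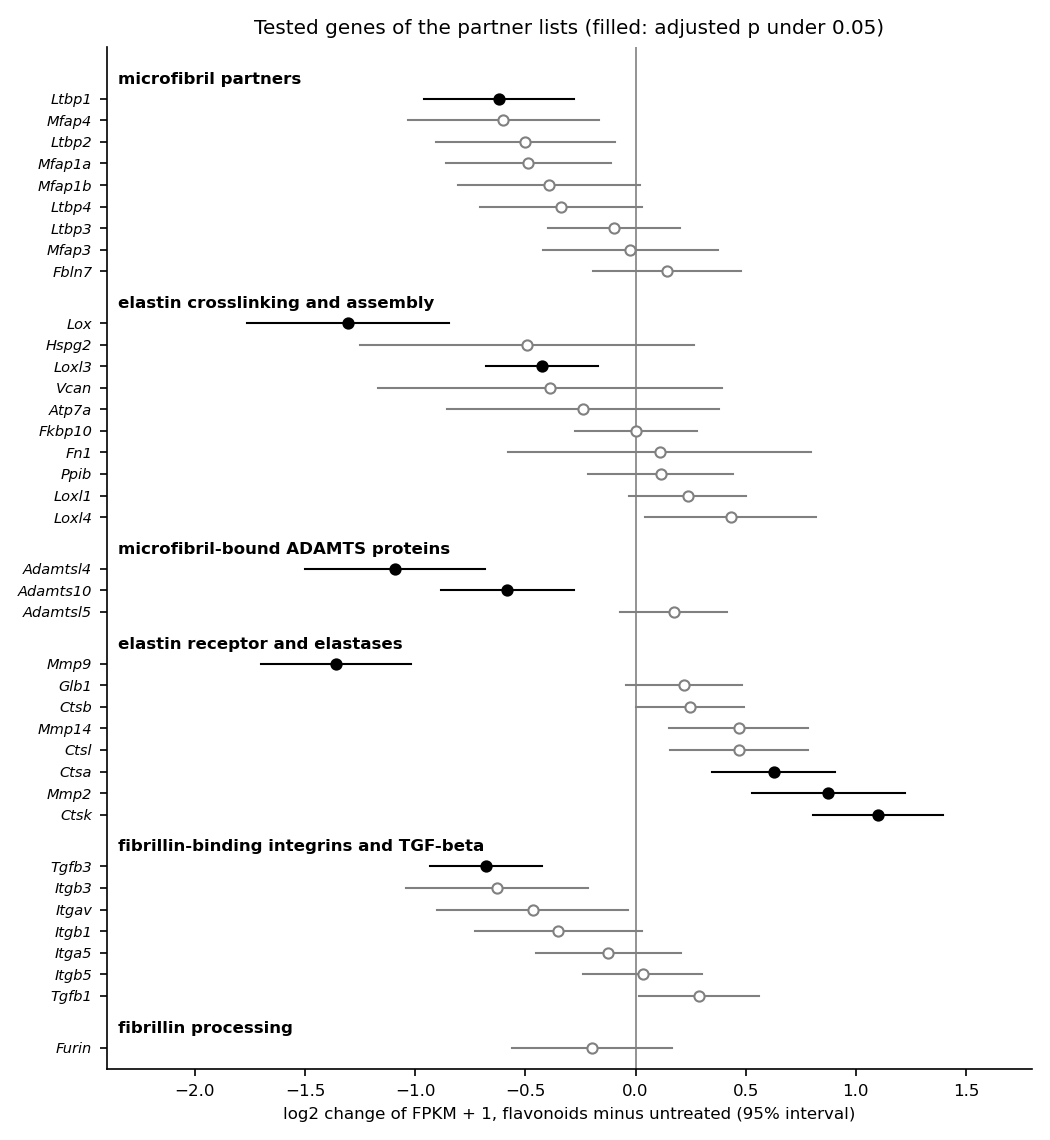
Log2 change of FPKM + 1, flavonoids minus untreated, for the tested genes of 6 lists of elastic fibre partners, with 95% intervals not adjusted for the number of genes and filled points for an adjusted p under 0.05. Lox, Adamtsl4 and Mmp9 lie farthest to the left and Ctsk farthest to the right, at 1.10.

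Of 9 listed markers of fibroblasts and preadipocytes 8 were tested, and Lum, Dcn and Thy1 fell while none rose. Lum was called in all 17 other fits, and the calls of Dcn and Thy1 were each lost in 3. Dlk1, Pdgfra, Col1a1, Col3a1 and Pdgfrb did not pass, the last with a log2 change of 0.16. The summed level of the 9 was 2386 to 2556 FPKM in flavonoid-treated libraries and 3270 to 3719 FPKM in untreated libraries, and Col1a1 and Col3a1 made up most of it. The part of this difference in the results for Mfap5 and Emilin1 was not tested. The summed adipocyte markers were 346 to 519 FPKM with flavonoids and 386 to 416 FPKM without, and none of 4 tested passed. Fabp4 and Lpl made up most of that sum, with log2 changes in opposite directions of -0.36 and 0.65. Of the smooth muscle and myofibroblast markers, 3 of 6 were tested and none passed. Acta2 was abundant, at 339 ± 26.8 FPKM with flavonoids and 328 ± 60.6 FPKM without (SD, n = 3 each). Tagln averaged 10.4 FPKM with flavonoids and 18.8 FPKM without, and Des 5.41 and 7.12 FPKM. Cnn1 and Myh11 stayed below 1 FPKM, and Myocd was listed at 0 throughout. Of the chondrocyte and osteoblast markers, 2 of 6 were tested and none passed. Endothelial markers summed to at most 0.282 FPKM and macrophage markers to at most 3.50 FPKM in any library.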

How the data were processed

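The authors deposited 1 table of FPKM values, fragments per kilobase of gene scaled to the library total, with 1 column for each of the 6 samples. Per the submitters' processing notes, reads went through FastQC and HISAT2, with mm10 as the genome build. How fragments were counted, against which annotation and with or without strand, is not given in the sources used here. Per the labels' protocols, TRIzol was used to extract RNA and a TruSeq RNA kit to build libraries.

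The values are whole multiples of what 1 fragment is worth. Library totals and gene lengths that make all values of a gene whole were solved for, and 22226 of 22235 genes above 0 came out whole within 0.001 fragments (Python 3.11.15, numpy 2.4.6, pandas 2.3.3). A divisor shared by all samples can stay hidden in such a solution. Fragment numbers speak to counting error alone.

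Groups were compared with limma 3.58.1 (R 4.3.3). Values entered as log2(FPKM + 1), the variance prior followed the mean level, and 11464 genes whose 6-sample mean reached 1 FPKM were tested. The two-sided p-values were adjusted over all of these genes (Benjamini-Hochberg), with a threshold of 0.05. The added 1 shrinks the fold change of genes with low FPKM. Printed 95% intervals are not adjusted for the number of genes. Both procedures were tested on simulated data, where the share of false calls by limma came out above the threshold used, so calls close to that threshold are the least firm. Ratios between 2 members within a sample were compared with exact permutation tests (scipy 1.17.1).

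Other settings were the replicate number as a block, 0.1 or 5 in place of the added 1, a minimum mean of 5 FPKM or none at all, a TPM scale, median-ratio scaling, no intensity trend, removal of each library's loess trend over gene length (span 0.5) with and without the block, voom on the recovered fragments, and leaving out each library. All 10 members are named. Of the partner lists, genes past the threshold and at most 5 others per list are named. The members and lists were chosen with earlier results of these data known. Gene positions are from GENCODE M21 on GRCm38, the assembly mm10 denotes. Promoters are RefSeq windows of GRCm38.p6.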

Additional observations from a re-analysis of the deposited data

How the results depend on the processing

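Of 135 member results under 17 other fits, 123 kept their direction and their side of the threshold, 7 lost a call, 3 gained one and 2 turned direction. Both turns were of Fbln2, at -0.0068 on the TPM scale and -0.1009 without untreated replicate 1, the low end of a leave-one-out range that reached 0.2374. Eln could not be tested at a minimum mean of 5 FPKM. The 2 members called lower became 1 without a filter, on the TPM scale and with the replicate block, 3 with the length trend removed, and 0 to 3 when 1 library was left out. Genes called higher and lower over the whole table numbered 557 and 588. They were 220 and 237 with the replicate block, 317 and 324 without a filter, 1282 and 1207 with the length trend removed, and 1069 and 1009 with that and the replicate block. Leaving out 1 library gave 64 to 875 higher and 76 to 827 lower. Partner genes called lower numbered 4 in place of 7 with the replicate block, without a filter and on the TPM scale, and partner genes called higher 7 in place of 3 with the length trend removed. The causes were not tested. Samples with the same number did not deviate together (r = -0.143, -0.117 and -0.203), so the replicate block is no paired analysis; under it Emilin1 had a limma adjusted p of 0.0557. The change in the ratio of Eln to Fbn1, 0.047, ran from -0.1811 to 0.4617 when 1 library was left out, and turned without flavonoids replicate 1, untreated replicate 2 or untreated replicate 3. The ratio of Fbln5 to Efemp2 kept its direction under all its alternatives. Depth limits Mfap2 and Fbn2 most, at 0 to 6 fragments per library.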
